A study of Mus musculus with 90 samples.

Results

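Menin and Mll2 were found together at most regions of trimethylated lysine 4 of histone H3 (H3K4me3) in mouse embryonic stem cells, and this section describes the balance between the pair at the regions they share. Overlapping autosomal H3K4me3 peaks of 2 libraries were merged, and 18336 merged regions held a peak of both. A Menin peak overlapped 16388 of them (89.4%), peaks of both Mll2 sera overlapped 14973 (81.7%), and 14617 (79.7%) had all of these and were kept. For each region the tags of the overlapping peaks were divided by their summed length in kb and then by the median of that list over the 14617 regions, which gave a relative occupancy of 1 at the median region. The balance was the log2 ratio of relative Menin occupancy to the mean relative occupancy of the 2 Mll2 sera. The 1461 regions with the highest balance are called Menin-rich, the 1461 with the lowest Mll2-rich, and the other 11695 the middle 80%. Both names are relative, since every region held called peaks of Menin and of both sera.

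H3K4me3 marks active and poised promoters. Mll2 is one of the methyltransferases that write it, and it works within a COMPASS-type complex that shares its core subunits with related enzymes. Menin is a subunit of the Mll1 and Mll2 complexes and takes part in bringing them to chromatin. Menin therefore reports on both enzymes, while the Mll2 sera are meant to report on one.

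The series covers 90 samples of mouse V6.5 embryonic stem cells and embryoid bodies, and 5 ChIP-seq peak lists of stem cells in medium with serum and LIF were used here. H3K4me3 was immunoprecipitated with the home-made antibody 28 from wild-type cells infected with a lentiviral hairpin against GFP (replicates 1 and 3). Mll2 was immunoprecipitated with the home-made sera 9172 and 9175, and Menin with a commercial antibody, from wild-type cells whose labels name no hairpin. Menin and each serum had 1 library, so no difference between groups of regions could be tested across samples, and p-values were not computed. The spread between the 2 sera and between the 2 H3K4me3 libraries served as the measure of error. Counting errors of balance values cover tag counts only. Intervals on shares are exact Clopper-Pearson intervals over numbers of regions. They treat regions as independent, although neighbouring regions resembled each other in their balance, so they can be too narrow. Variation between libraries is not covered by them. Per the file headers both sera were compared with the same input library and Menin with another, so a difference between the proteins and a difference between library preparations cannot be told apart.

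The libraries kept between 11550409 tags (Menin) and 21936546 tags (H3K4me3 replicate 1) after removal of duplicates. Over the 14617 regions the median peak tags were 104 for Menin, 95 for serum 9172 and 84 for serum 9175. These counts gave a single balance value a median counting standard error of 0.17 in the Menin-rich regions, 0.18 in the middle 80% and 0.17 in the Mll2-rich regions, on the log2 scale. The median occupancy was 60.9 tags per kb for Menin, 74.8 for serum 9172 and 58.7 for serum 9175, against 265 and 165 for H3K4me3 replicates 1 and 3.

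Menin occupancy had a smaller spread over the regions than Mll2 occupancy and followed it in part. The standard deviation (SD) over the 14617 regions was 0.42 for log2 relative Menin occupancy and 0.49 for log2 relative Mll2 occupancy. When regions were ranked by Mll2 and cut into deciles, the median relative Mll2 occupancy ran from 0.59 to 1.76 and that of Menin from 0.73 to 1.30, a description in which the protein used for the ranking has the wider range by construction. Across regions a doubling of Mll2 went with a 1.40-fold higher Menin occupancy (slope 0.48 on the log2 scale). Spearman's rho across regions was 0.59 between Menin and the Mll2 mean and 0.85 between the 2 sera, which share their input library. These regions are not independent replicates, so the coefficients are descriptions.

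The balance spread wider than the sera differed. Its SD was 0.43 on the log2 scale, against 0.28 for the log2 ratio of serum 9172 to serum 9175. It ran from -1.69 to 2.63, with the longer tail on the Menin side. Menin exceeded Mll2 by at least 2-fold at 345 regions (2.36%) and fell short of it by at least 2-fold at 102 (0.698%). The sera differed that much from each other at 32 regions in favour of serum 9172 (0.219%) and at 21 in favour of serum 9175 (0.144%). The limits of the groups lay at a balance of 0.51 and -0.51, a 1.42-fold excess of either protein. Balance values next to the limits were close: the last region inside the Menin-rich group had 0.510073 and the first outside 0.509789, and the corresponding Mll2-side values were -0.505976 and -0.505913. The limits therefore sit inside a continuous distribution.

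**Figure D1:**
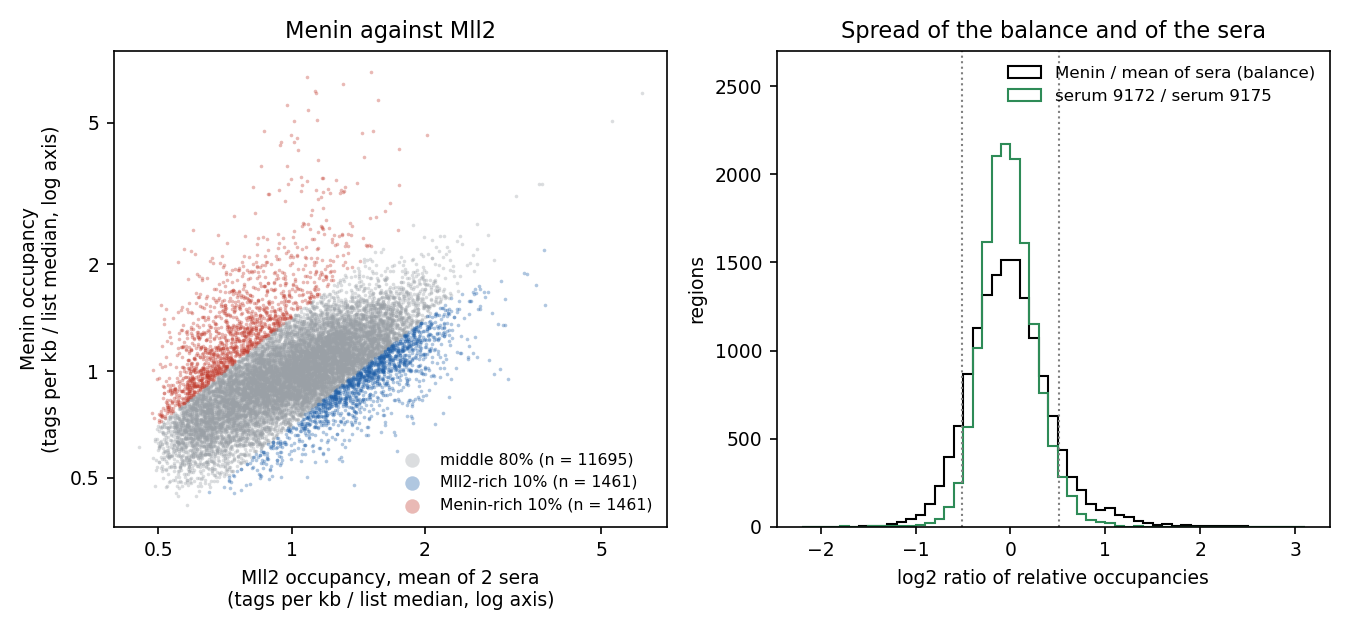
Left, relative Menin occupancy against relative Mll2 occupancy (mean of 2 sera) on log axes, 1 point per region, with the Menin-rich 10% in red, the Mll2-rich 10% in blue and the middle 80% in grey. Right, number of regions by log2 ratio of Menin to Mll2 (black) and of serum 9172 to serum 9175 (green), with the limits at 0.51 and -0.51 dotted: the black distribution is wider (SD 0.43 against 0.28) and reaches 2.63 on the Menin side.

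By group medians both proteins contributed to the split, and Mll2 contributed more. Median Menin occupancy was 78.0 tags per kb in the Menin-rich regions, 59.8 in the middle 80% and 57.8 in the Mll2-rich regions. Median serum 9172 occupancy was 53.7, 74.3 and 114 tags per kb in the same order, and that of serum 9175 was 43.6, 58.5 and 87.3. The Mll2-rich group as a whole was thus set almost wholly by high Mll2, with a Menin level near that of the middle 80%. The Menin-rich group had more Menin and less Mll2, in proportions that varied within it. In its 311 regions with an H3K4me3 level over 1, median relative occupancy was 1.77 for Menin and 0.96 for Mll2. In its 768 regions with a level up to 0.5 it was 1.16 and 0.66. These values made the groups and are given as a description.

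The Mll2 side was also read in the serum left out of the ratio, although each region had to hold a called peak of that serum. When the groups were made from Menin and serum 9172, the relative occupancy of serum 9175 had medians of 0.79 in the Menin-rich regions, 1.00 in the middle 80% and 1.30 in the Mll2-rich regions. When serum 9175 made the groups, serum 9172 had medians of 0.75, 1.00 and 1.41. Menin entered both choices, and the sera follow each other across regions and share their input library. These medians are therefore a description. The groups from the mean of both sera use the same Menin values and each serum in part. Their overlap with groups from 1 serum is therefore partly built in and is given as a description. With serum 9172 alone 1230 of the 1461 Menin-rich regions (84.2%, exact Clopper-Pearson 95% interval 82.2 to 86.0%) stayed in that group, and with serum 9175 alone 1184 (81.0%, 78.9 to 83.0%). Of the 1461 Mll2-rich regions 1089 (74.5%, 72.2 to 76.8%) stayed with serum 9172 alone and 1071 (73.3%, 71.0 to 75.6%) with serum 9175 alone. Regions that stayed in both cases numbered 973 in the Menin-rich group (66.6%) and 706 in the Mll2-rich group (48.3%).

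The most Menin-rich regions with 1 peak in each list carried strong Menin peaks over ordinary Mll2. All coordinates are of mouse build mm9. The region with the highest balance lay on chromosome 17 from 17370946 to 17373338 and had 422 Menin tags over 1032 bp (409 tags per kb), 75 tags of serum 9172 (90.5 per kb) and 60 of serum 9175 (56.0 per kb). Its balance was 2.63 with a counting error of 0.14, and it was 2.47 with serum 9172 alone and 2.82 with serum 9175 alone. A region on chromosome 7 from 52183543 to 52186278 had 342 Menin tags per kb, 69.3 tags per kb of serum 9172 and 60.1 of serum 9175, a balance of 2.53. On chromosome 17 from 17087800 to 17089458 Menin reached 289 tags per kb against 75.4 and 42.5 for the sera (serum 9172 first), a balance of 2.46. On chromosome 10 from 128131995 to 128134218 it reached 375 against 89.2 and 62.6, a balance of 2.45. In these regions Menin was 4.8 to 6.7 times its median level, while each serum stayed within 0.72 to 1.21 of its own. Their H3K4me3 level, between 1.10 and 1.68 times the median region, was above the median.

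The most Mll2-rich regions showed the reverse, and there the sera agreed less. The mean of the same 2 sera entered their choice, which can favour regions where 1 serum is high. The disagreement is therefore given as a description. On chromosome 7 from 128849511 to 128851740 Menin had 103 tags (58.0 per kb), serum 9172 had 441 (284 per kb) and serum 9175 had 248 (139 per kb). The balance was -1.69 with a counting error of 0.15, and it was -1.99 with serum 9172 alone and -1.32 with serum 9175 alone. The region on chromosome 4 from 70070166 to 70072413 had a balance of -1.55, and the sera gave -1.98 (9172) and -0.93 (9175). On chromosome 5 from 124356480 to 124358942 the order of the sera was the other way, with -0.83 for serum 9172 and -2.02 for serum 9175. A region on chromosome 6 from 131242266 to 131244010 had the least dependence on the serum, with -1.47 and -1.59, from 32 Menin tags, 143 tags of serum 9172 and 135 of serum 9175. Menin peaks in these regions were present but ordinary, at 46.4 to 61.7 tags per kb.

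Menin-rich regions carried less H3K4me3 and Mll2-rich regions more. The median H3K4me3 level, the mean of the relative tags per kb of both libraries, was 0.47 in the Menin-rich regions (quartiles 0.30 and 0.90), 1.03 in the middle 80% (0.54 and 1.49) and 1.40 in the Mll2-rich regions (1.06 and 1.70). Both H3K4me3 libraries had this order, with medians of 136, 268 and 349 tags per kb in replicate 1 and of 71.7, 165 and 240 in replicate 3. A level under 0.5 was found in 52.6% of the Menin-rich regions (95% interval 49.97 to 55.2%), 22.5% of the middle 80% and 5.89% of the Mll2-rich regions (4.73 to 7.22%). The quartile ranges of the Menin-rich and Mll2-rich regions did not overlap, and each overlapped that of the middle 80%.

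The H3K4me3 difference depended on how the balance was formed. Mll2 occupancy followed H3K4me3 more closely than Menin did across regions (rho 0.72 and 0.46), and it was the wider-ranging part of the ratio. When Menin was instead compared with the Menin level that the regression on Mll2 gave, the median H3K4me3 level was 0.84 in the highest 10% of residuals, 1.07 in the middle 80% and 0.75 in the lowest 10%. The deficit in the Menin-rich group became smaller, and the excess in the Mll2-rich group turned into a deficit. Of the 1461 regions in each group, 1005 Menin-rich and 682 Mll2-rich ones stayed in the same group with the residual, and 0 moved to the opposite one. Residual groups were added after the data were seen.

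**Figure D2:**
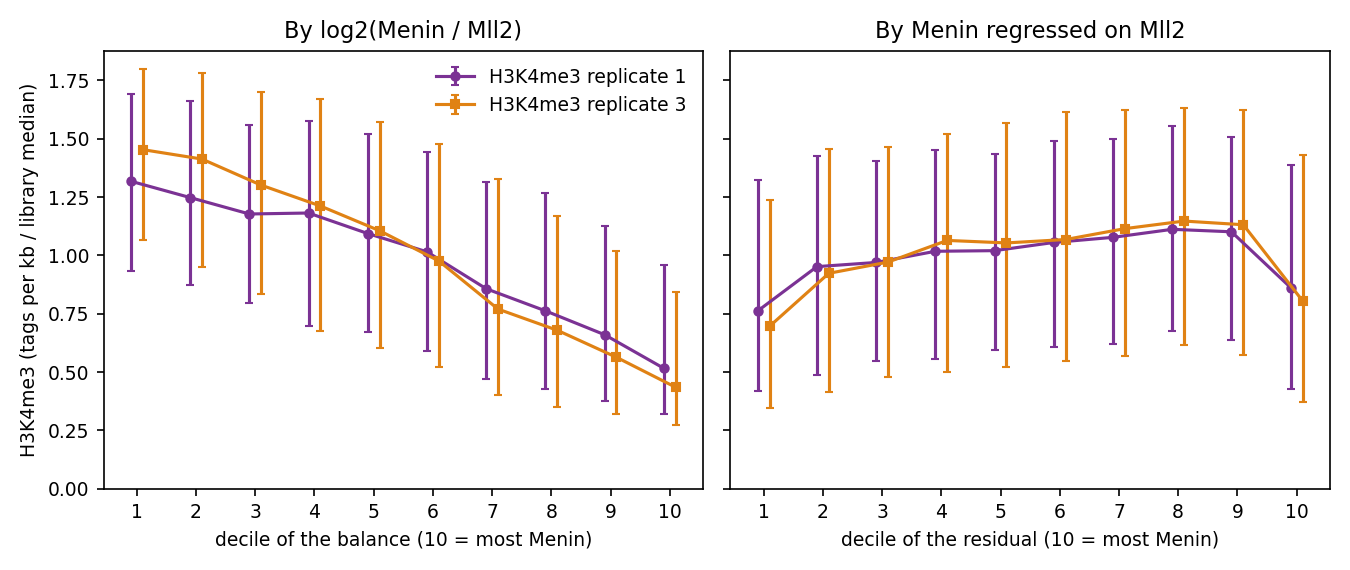
Median H3K4me3 level (tags per kb divided by the library's median) with quartiles as bars, for replicates 1 and 3, by deciles of the balance (left) and by deciles of the residual of Menin regressed on Mll2 (right), where 10 holds the most Menin. On the left replicate 1 falls from 1.32 to 0.52 and replicate 3 from 1.45 to 0.44. On the right replicate 1 runs from 0.76 in decile 1 over 1.11 in decile 8 to 0.86 in decile 10.

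The very highest balances did not follow the fall of H3K4me3. Among the 74 regions in the top 0.5% the median balance was 1.67 and the median H3K4me3 level 1.09, with quartiles of 0.30 and 1.48. In the 584 regions between the 95th and 99th percentiles the medians were 0.90 and 0.42. Menin occupancy was 194 tags per kb in the first set and 85.1 in the second, and Menin peaks were shorter in the first (medians 1956.5 and 2603.5 bp). These bins were chosen after the values were seen. Within the Menin-rich group 768 regions had an H3K4me3 level up to 0.5, 382 between 0.5 and 1 and 311 above 1, so weakly and strongly marked regions both belonged to it. One of its most strongly marked regions lay on chromosome 8 from 72518638 to 72521622, with 560 and 443 H3K4me3 tags per kb and 281 Menin tags per kb against 161 and 110 for the sera.

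Menin-rich regions lay closer to other H3K4me3 regions than the rest, and this held under each alternative run. The median distance to the nearest other of the 18336 regions was 8843 bp for the Menin-rich regions (quartiles 2754 and 29423 bp), 20985 bp for the middle 80% (7336 and 53593.5 bp) and 27788 bp for the Mll2-rich regions (9859 and 63950 bp). Another region lay within 10000 bp of 52.4% of the Menin-rich regions (95% interval 49.8 to 54.9%), 31.5% of the middle 80% (30.7 to 32.4%) and 25.2% of the Mll2-rich regions (23.0 to 27.5%). Within 1000 bp the shares were 12.0%, 3.98% and 2.81%. The Menin-rich regions were closer together in each quintile of H3K4me3 level, with a median of 6313 bp against 15813 bp for the middle 80% in the lowest quintile and 18277 against 22813 bp in the highest. With the residual the medians were 12740, 20560 and 25582 bp. The excess of the Mll2-rich regions over the middle 80% was uncertain in size, at 0.41 on the log2 scale with both sera, 0.15 without serum 9175 and 0.75 without serum 9172. The excess did not extend to the 73 regions in the lowest 0.5% of the balance, whose median spacing was 12091 bp. Their quartiles were 4455 and 35752 bp. In the 73 regions from 0.5 to 1% the median was 26029 bp. These bins were chosen after the values were seen.

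Long Menin peaks that span neighbouring regions could enter both the balance and the spacing, so their share was counted. A Menin peak was shared with another H3K4me3 region in 7.60% of the Menin-rich regions (6.29 to 9.08%), 1.03% of the middle 80% and 0.68% of the Mll2-rich regions. With the groups kept and regions with any shared Menin or Mll2 peak left out, 1347 Menin-rich regions remained and their median spacing was 10748 bp, against 21424 bp in the middle 80% and 28263 bp among Mll2-rich regions. The order of the spacing was thus the same without those regions. Menin peaks of the regions kept were still longer in the Menin-rich group, with medians of 2123, 1604 and 1550 bp. What peak length adds to the spacing difference was not tested. The tails of the ratio between the sera, which involve no Menin, also differed in spacing, with 13535 bp where serum 9172 was high, 20528 bp in the middle 80% and 25608 bp where serum 9175 was high. Their H3K4me3 levels differed too, with medians of 1.35, 1.01 and 0.83, and so did their widths, with 2248, 2132 and 1911 bp. Libraries of a single protein therefore also sorted regions by spacing, H3K4me3 and width, though by less than the balance did for spacing and H3K4me3.

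Neighbouring regions resembled each other in their balance. Spearman's rho between a region's balance and that of the nearest of the 14617 regions was 0.41 where the gap was under 2000 bp, 0.25 between 2000 and 5000 bp, and 0.01 beyond 100000 bp. The nearest region was itself Menin-rich for 30.4% of the Menin-rich regions (28.0 to 32.8%), for 8.85% of the middle 80% and for 6.09% of the Mll2-rich regions. Where the gap was under 2000 bp, 52.9% of the Menin-rich regions had a Menin-rich neighbour, and 23.5% of all regions with such a gap were Menin-rich. Beyond 100000 bp these shares were 9.33% and 6.45%. For Mll2-rich regions with an Mll2-rich neighbour the shares were 30.3% under 2000 bp and 12.3% beyond 100000 bp. Of all regions with such gaps, 6.42% and 12.6% were Mll2-rich. The distance bins were chosen after the values were seen, and near neighbours can hold the same Menin peak.

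**Figure D3:**
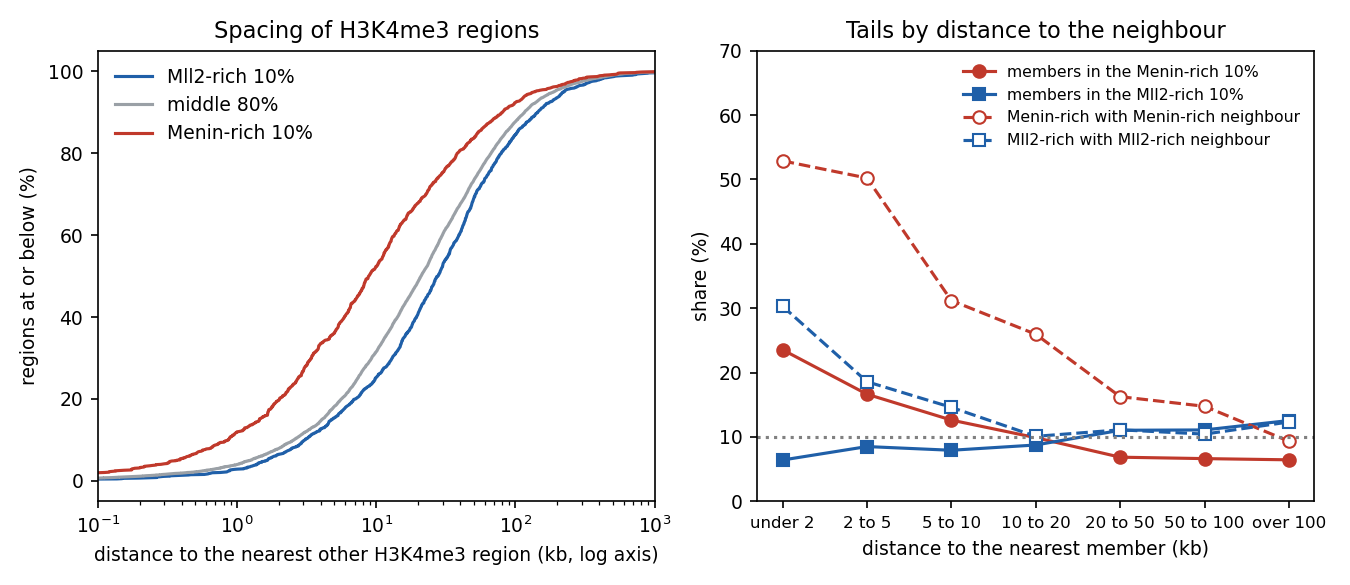
Left, cumulative share of regions (%) by distance to the nearest other H3K4me3 region (kb, log axis), with the Menin-rich curve to the left of the others (medians 8843, 20985 and 27788 bp). Right, by distance to the nearest of the 14617 regions (kb), the share of regions that are Menin-rich or Mll2-rich (solid) and, among these, the share whose neighbour is in the same group (dashed), with the 10% line dotted: the dashed Menin-rich line falls from 52.9% to 9.33% and the solid one from 23.5% to 6.45%.

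Menin-rich surroundings also held Menin and Mll2 peaks outside the 18336 H3K4me3 regions. Peaks outside them can still overlap an H3K4me3 peak of a single library. A Menin peak that overlapped none of the 18336 regions lay within 10000 bp of 69.1% of the Menin-rich regions (66.6 to 71.4%), 45.3% of the middle 80% (44.4 to 46.3%) and 34.4% of the Mll2-rich regions (32.0 to 36.9%). Such a peak of serum 9172 lay near 36.1%, 19.6% and 13.4% of them, and one of serum 9175 near 38.8%, 19.2% and 13.5%. The order was the same for each of the 3 lists.

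Region width differed little and in no steady direction. The median width was 1997 bp for the Menin-rich regions (quartiles 1465 and 2679 bp), 2106 bp for the middle 80% (1618 and 2735 bp) and 2297 bp for the Mll2-rich regions (1876 and 2778 bp). The log2 ratio of the Menin-rich median to that of the middle 80% was -0.077, and -0.22 or -0.20 when H3K4me3 replicate 1 or 3 was left out. With the residual the order turned round, to 2331, 2143 and 1720 bp. Within each quintile of H3K4me3 level the Menin-rich regions were the wider ones, for example 1515 bp against 1299 bp in the lowest quintile and 2914 against 2777 bp in the highest. No direction of width can be given that holds for these ways of forming the groups.

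Menin peaks were longer in the Menin-rich regions, while the group medians of Mll2 peak length differed less. The summed Menin peak length had medians of 2236 bp in the Menin-rich regions, 1612 bp in the middle 80% and 1556 bp in the Mll2-rich regions. For serum 9172 the medians were 1153, 1170 and 1214 bp, and for serum 9175 they were 1444, 1334 and 1354 bp. Within each quintile of H3K4me3 level, both Menin and Mll2 peaks were longer in the Menin-rich regions than in the middle 80%. In the lowest quintile Menin had 2366.5 against 1265 bp and Mll2 (mean of the sera) 1102.25 against 881.5 bp. In the highest quintile Menin had 1848 against 1759 bp and Mll2 1549.5 against 1516 bp. Menin peaks were longer than the H3K4me3 region beneath them in 56.1% of the Menin-rich regions (53.5 to 58.6%), 23.2% of the middle 80% and 11.4% of the Mll2-rich regions. Length is the divisor of the occupancy that formed the groups, and median Menin tags were 182, 101 and 92, which is given as a description. The Mll2 signal of Menin-rich regions was split more often, with more than 1 serum 9172 peak in 22.5% of them against 8.64% of the middle 80% and 3.08% of the Mll2-rich regions. More than 1 Menin peak was found in 10.2%, 13.6% and 20.1%.

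Menin and Mll2 summits lay further apart in the Menin-rich regions. The median distance from the summit of the strongest Menin peak to those of the sera, averaged over the sera, was 245 bp in the Menin-rich regions (quartiles 106.5 and 503.5 bp), 159 bp in the middle 80% (72.5 and 331.5 bp) and 146 bp in the Mll2-rich regions (60 and 308.5 bp). Each serum gave this order, with 223, 152 and 141 bp for serum 9172 and 215, 151 and 137 bp for serum 9175. The 2 sera, which mark the same protein, were also further apart from each other in the Menin-rich regions, with medians of 123, 74 and 54 bp. As a percentage of the Menin peak length the Menin to Mll2 distance was 12.4%, 10.4% and 9.43%, a smaller difference than in bp. The share of regions with summits 500 bp or more apart was 25.1% (22.9 to 27.4%) in the Menin-rich group and 13.8% (13.2 to 14.5%) in the middle 80%. How much of the distance comes from longer Menin peaks or from less sharp Mll2 summits was not tested.

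**Figure D4:**
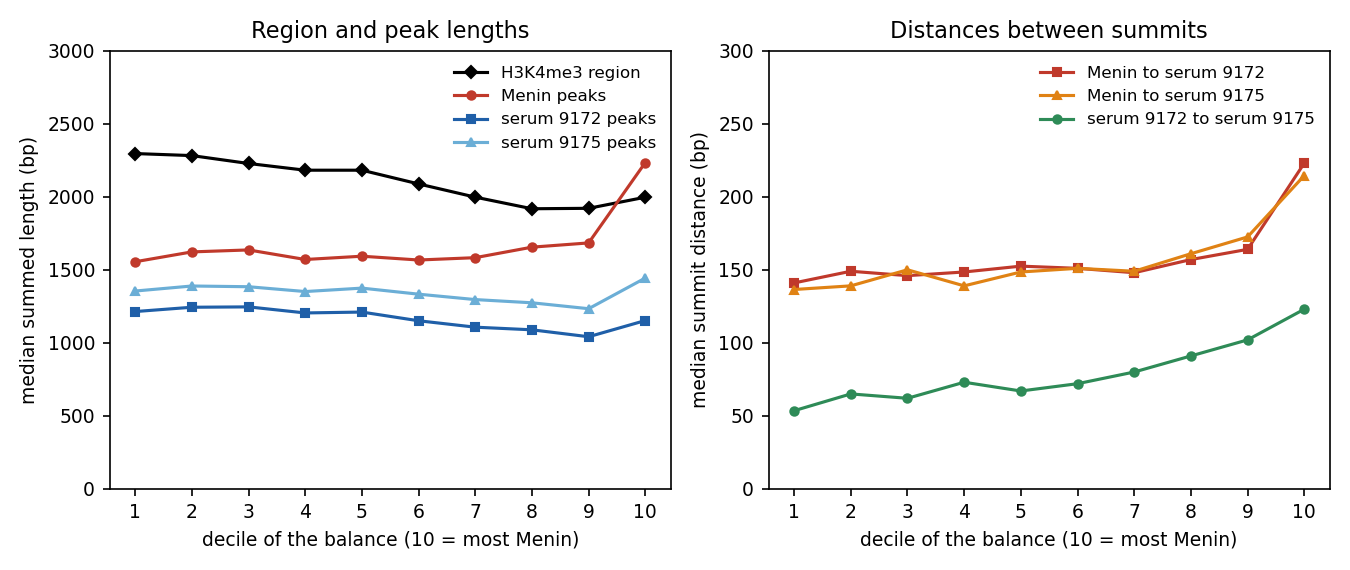
Left, median H3K4me3 region width and median summed peak length of Menin and each serum (bp) by deciles of the balance, where 10 holds the most Menin. Right, median distance between summits (bp) of Menin and each serum and of the 2 sera: Menin length rises to 2234.5 bp in decile 10, and the distances rise there to 223, 214.5 and 123 bp.

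Some Menin-rich regions formed stretches along the chromosomes. Runs of at least 4 consecutive Menin-rich regions, each at most 50 kb from the next, were found 15 times. They held 69 of the 1461 Menin-rich regions, while 4 such runs held 16 of the 1461 Mll2-rich regions. Both limits were chosen after the data were seen. The nearest of the 14617 regions lay at a median of 11369 bp from Menin-rich and 33856 bp from Mll2-rich regions. What this difference adds to the number of runs was not tested. The longest run had 7 regions on chromosome 2 from 74505708 to 74550688, with balances from 0.61 to 1.39. Relative Menin occupancy there was 0.96 to 2.09, that of serum 9172 was 0.51 to 1.05, that of serum 9175 was 0.53 to 0.94, and the H3K4me3 level was 0.20 to 0.34. Runs of 6 regions lay on chromosome 6 from 52140794 to 52241925 and on chromosome 11 from 118898201 to 118953154, and runs of 5 on chromosome 11 from 96112053 to 96216539 and from 119958808 to 120102682. Of these 15 runs 5 held peaks shared between H3K4me3 regions, at 13 of the 69 regions, so some neighbours in a run repeat the value of a single Menin peak. This applied to 4 of the 6 regions of the run on chromosome 11 from 118898201 and to 3 of the 5 of that from 119958808, and to 0 of the 7 on chromosome 2 and 0 of the 6 on chromosome 6. An H3K4me3 level under 0.5 was found in 52 of the 69 regions (75.4%), against 52.6% of all Menin-rich regions. Relative Menin occupancy, which entered the choice, was above 1 in 64 of the 69 (92.8%) and in 80.01% of all Menin-rich regions. Each of the 4 Mll2-rich runs lay on chromosome 13, from 21825940 to 21873200, 23607878 to 23629089, 23646138 to 23715123 and 67709561 to 67825849. Their 16 regions had a relative Menin occupancy of 0.56 to 0.83 and H3K4me3 levels of 0.56 to 1.70, and none of them held a shared peak. Serum 9172 was above its list median in 15 of the 16 (median 1.20) and serum 9175 in 7 (median 0.98). Menin was below its list median in all 16 (median 0.69). These runs were thus low in Menin and, with serum 9175, ordinary in Mll2, unlike the Mll2-rich group as a whole.

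**Figure D5:**
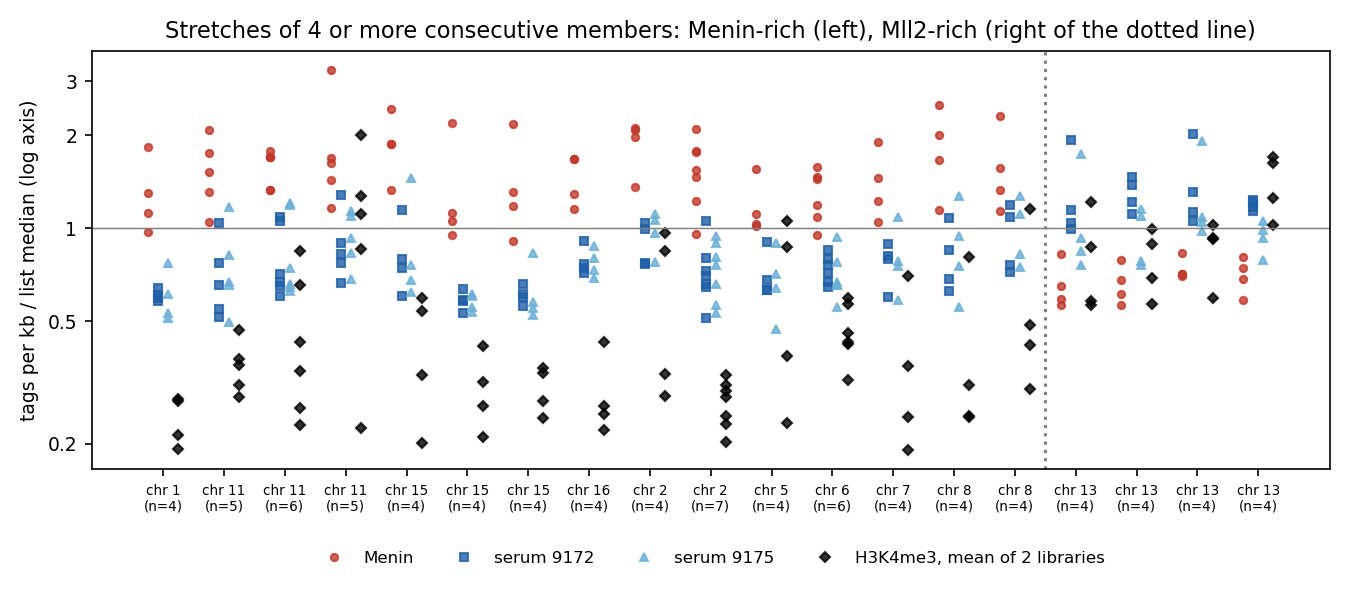
Relative occupancy (tags per kb divided by the list median, log axis) of Menin, serum 9172, serum 9175 and H3K4me3 in each region of the 15 Menin-rich runs and, right of the dotted line, the 4 Mll2-rich runs, with chromosome and number of regions on the horizontal axis. Menin, which entered the choice of the regions, lies above the median line in 64 of 69 regions on the left and below it in 16 of 16 on the right.

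The files name no genes, and no annotation of build mm9 was used, so no region was assigned to a gene.

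Chromosomes differed in their share of each group. On chromosome 13, 104 of 597 regions (17.4%, 95% interval 14.5 to 20.7%) were Mll2-rich, against 10% of all regions, and 7.37% were Menin-rich. The Menin-rich share was 13.8% on chromosome 8 (11.6 to 16.3%) and 13.6% on chromosome 19 (10.7 to 16.9%), and it was 7.81% on chromosome 3 (5.89 to 10.1%). Median spacing was 14710 bp on chromosome 8, 14972 bp on chromosome 19, 26060 bp on chromosome 13 and 29120.5 bp on chromosome 3. Chromosome 17 had the closest regions (12766 bp) and a Menin-rich share of 11.7%. These chromosomes were picked for their shares after the values were seen, and their intervals treat neighbouring regions as independent.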

How the data were processed

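Per the file headers, the authors ran MACS 1.4.2 once for each library with 1 input as control (p cutoff 1e-05, 1 tag kept per position); the build is mm9, per the submitters' processing notes. Tags per peak were deposited as raw counts, and keeping 1 tag per position limits it in strong, narrow peaks. The deposited fold enrichment is a ratio to a background that MACS estimated, the deposited score is minus 10 times the log10 of the MACS p-value, and the false discovery rate is deposited in percent. Here peaks overlapping by at least 1 bp were joined with Python 3.11.15, pandas 2.3.3 and NumPy 2.4.6, and intervals came from SciPy 1.17.1. The code was also run on simulated lists with planted Menin changes larger than those at the group limits. That run concerned the code and does not bear on the groups themselves. Summits were those of the peak with the highest fold in a region. Alternatives were fold enrichment, summed tags, 50% overlap, a score of at least 100, 1 peak of each list, tails of 5% and leaving out each serum or H3K4me3 library. Added after the data were seen were the residual, regions without shared peaks, and groups made within quintiles of H3K4me3 level. Members and lists were chosen with earlier results of these data known. Named regions were, among regions in the same tail with each serum alone, the 5 most extreme with 1 peak per list and the 5 with the highest H3K4me3 level per tail, and those next to the limits; the text gives a selection made after their values were seen. Labels do not say whether the libraries came from separate cultures. Sex chromosomes were left out.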

Additional observations from a re-analysis of the deposited data

How the results depend on the processing

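Of 9 results, 8 were log2 ratios of a group's median to that of the middle 80% and the other was the SD of the balance. Over 13 alternatives, 3 of them added after the data were seen, 102 log2 ratios and 8 SDs were computed, 110 values in all. A value counts as moved when it differs by more than the SD over the 4 values that leave out 1 serum or H3K4me3 library each, a measure settled after the values were seen. By it 61 values stayed, 43 moved and 6 changed direction, and the cause was not tested for any of them. Most of the leave-one-out values that set this measure are also among the 110, and its size differs between results. The counts are therefore a description. Spacing and summit distance kept their direction in each alternative run, for both groups.

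With the residual of Menin on Mll2, the width of the Menin-rich regions went from -0.077 to 0.12 and that of the Mll2-rich from 0.13 to -0.32, their H3K4me3 level from -1.12 to -0.34 and from 0.45 to -0.52, the Menin-rich spacing from -1.25 to -0.69 and summit distance from 0.62 to 0.50. With groups made within quintiles of H3K4me3 level, width was 0.16 for the Menin-rich and -0.067 for the Mll2-rich regions, Menin-rich spacing -0.90, and summit distance 0.46 and -0.16. With summed tags in place of tags per kb, width was -0.17 and -0.053, H3K4me3 level -1.38 and 0.24, Menin-rich spacing -1.83, the summit distance of Mll2-rich regions -0.23 (-0.12 as reported) and the SD of the balance 0.77 (0.43 as reported). With fold enrichment, width was -0.23 and 0.17, the H3K4me3 level of Mll2-rich regions 0.64, summit distance 0.28 and -0.33, and the SD 0.77. With 1 peak of each list, Menin-rich width was -0.21 and summit distance 0.45, and the SD 0.41. With a score of at least 100, Mll2-rich width was 0.067, H3K4me3 level -0.996 and 0.33, and the SD 0.42. Tails of 5% gave a Menin-rich H3K4me3 level of -1.21 and an Mll2-rich summit distance of -0.18. Without shared peaks, Menin-rich H3K4me3 level was -1.03 and summit distance 0.52.

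Leaving out serum 9172, serum 9175, H3K4me3 replicate 1 or H3K4me3 replicate 3 gave, for Menin-rich regions, widths from -0.22 to -0.083 (-0.20 without H3K4me3 replicate 3), H3K4me3 levels from -1.25 to -1.09 (-1.13 without H3K4me3 replicate 3), spacings from -1.81 to -1.20 (-1.71 without H3K4me3 replicate 1) and summit distances from 0.48 to 0.69 (0.49 without serum 9172). For Mll2-rich regions it gave widths from 0.11 to 0.16, H3K4me3 levels from 0.43 to 0.54 (0.53 without serum 9175), spacings from 0.15 (without serum 9175) to 0.75 (without serum 9172) and summit distances from -0.17 to -0.11. The SD of the balance was 0.44 without either H3K4me3 library. Values of the SD of the balance that leave out a serum entered that measure but are not listed as alternatives, since the balance then rests on 1 serum, and alternatives that change only the groups leave the SD as it is, and the quintiles were not used for H3K4me3 level, which formed them.

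No paired analysis was possible because Menin and each serum had 1 library and no result comes from a test across samples. Menin has the fewest tags of the 5 libraries, and a region without a called peak in any list was left out, so weakly occupied regions are missing from both groups.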
